A study of Mus musculus with 4 samples.

Results

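Eicosanoids are short-lived lipid signals made from arachidonic acid that phospholipases cut from membranes. Cyclooxygenases turn it into a precursor from which separate synthases make prostaglandin E2, prostacyclin and prostaglandin D2, and a dehydrogenase inactivates the prostaglandins; lipoxygenase and its partner proteins make the leukotrienes, which draw and activate leukocytes through their own receptors. In fat, prostaglandin E2 is known to restrain lipolysis, and prostaglandins are also known as regulators of fat cell differentiation.

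The genes described here are 10 genes of prostaglandin and leukotriene synthesis, breakdown and sensing. They were chosen by gene symbol, with earlier results of the same arrays known, so their values are given as a description. A member was measured when a probe set on the array carried its symbol and no other. That held for 8 of the 10, with 11 probe sets between them, out of 8251 genes with such a probe set; Ptgs1, the constitutive cyclooxygenase, and Alox5ap, the protein that presents arachidonate to lipoxygenase, had none and were dropped. All 8 measured members lay above the floor of 173.7 intensity units on at least 1 of the 4 arrays.

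The arrays measured epididymal white adipose tissue of male C57 BL6 mice aged 3 to 4 months, with RNA of several mice pooled for each array. There was 1 array for mice without the compound (control) and 1 array each for mice treated with CL 316243 at 3 nmol/hr for 1, 3 or 6 days. CL 316243 selectively activates the β3-adrenergic receptor, which fat cells carry. The titles of 2 arrays write its number as 316234, while the descriptions of the treated arrays write 316243. The sources used here do not say how many mice each pool held, how the compound was given or what the control mice received.

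With 1 array per group no difference has a replicate check and no p-value can be given. A gene is called higher or lower when 2 arrays differ at least 2-fold after values at or below the floor have been raised to it. A fold whose dimmer value was at or below the floor is written as at least that fold. The measurement error of a log2 change was taken from pairs of probe sets of the same gene, and 3 of these errors came to 2.0-fold for day 1 against control, 1.76-fold for day 3 and 1.67-fold for day 6. Where the dimmer probe set of the pair was at most 4 times the floor, 3 errors came to 2.41-fold, 2.0-fold and 1.89-fold on the same days, and where it was brighter to 1.66-fold, 1.54-fold and 1.58-fold. This error holds no difference between mice or pools.

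The tissue label was checked on marker genes. All 9 measured fat cell markers were above the floor, with the adipokine gene Adipoq at 52054 in control and 25354, 42608 and 55288 on days 1, 3 and 6. Genes of the epididymis, the duct this fat pad adjoins, stood out on some arrays. Lcn5, a lipocalin secreted by the epididymis, was at 3322 in control, 63 on day 1, 7 on day 3 and 8031 on day 6. Adam7, an epididymal membrane protein, was at 2655 in control, 200 on day 1, 251 on day 3 and 1847 on day 6, and Gpx5, an epididymal glutathione peroxidase, was at 6713 in control and between 179 and 622 on the treated days. Lcn5 and Adam7 were thus far above the floor on the control array, against which each treated day is set, and on the day 6 array, and below it or near it on the day 1 and day 3 arrays.

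Of the 8 members, 2 were at least 2-fold higher at day 1 than in control (Ptgs2 and Ltb4r1) and 1 was lower (Hpgd). Among the 6254 genes above the floor, 7.5% were higher and 8.36% lower in that comparison. At day 3, 0 members were higher and 3 were lower than in control (Ptges, Hpgd and Pla2g4a), against 3.81% of all genes higher and 3.26% lower. At day 6, 0 members were higher and 1, Hpgd, was lower, against 1.73% of all genes higher and 1.63% lower. The median log2 change of the 8 members was -0.08, -0.72 and -0.64 on days 1, 3 and 6, beside -0.02, 0.00 and 0.00 over all genes above the floor. In tissue RNA, fewer cells of a type and less RNA per cell cannot be told apart.

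**Figure D1:**
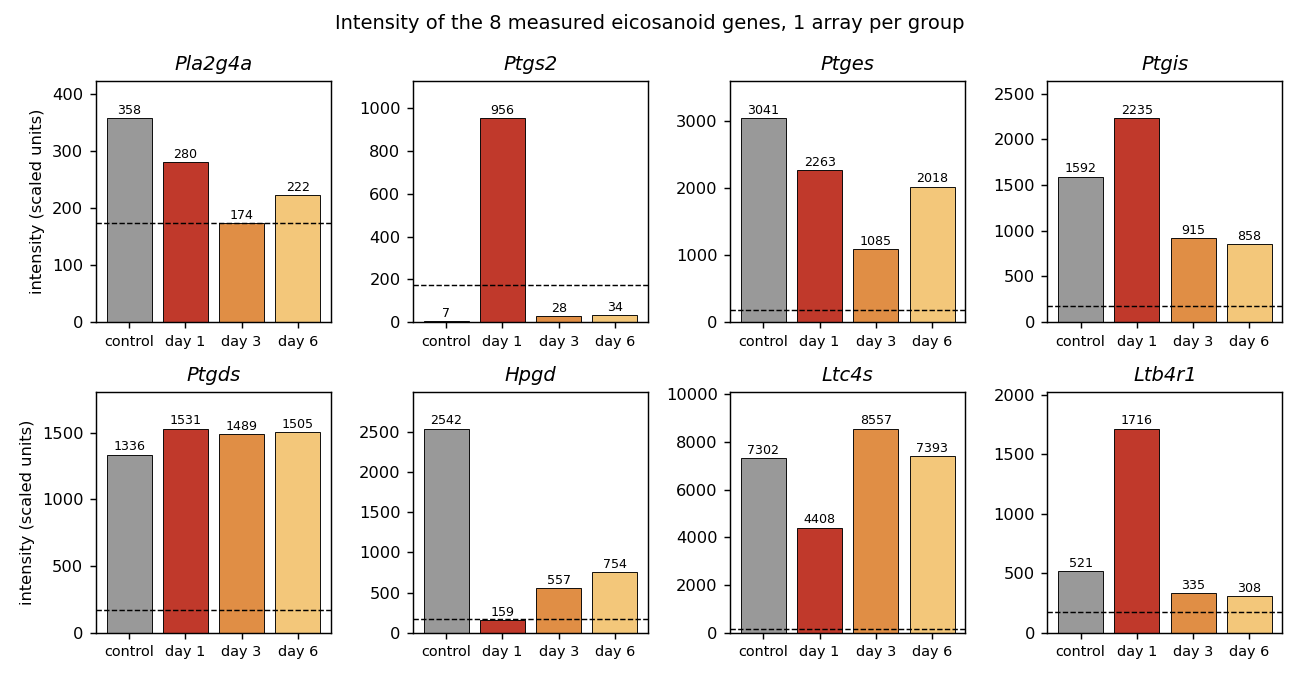
Intensity (scaled units, linear axis from 0) of the brightest probe set of each of the 8 measured genes, with 1 bar for each of the 4 arrays and a dashed line at the floor of 173.7. Ptgs2 stands above the floor at day 1 alone, at 956, and Hpgd has its highest bar in control, at 2542.

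The promoters of the members with the largest differences at day 1 are shown because β3-adrenergic stimulation raises cAMP, whose transcription factor CREB binds the cAMP response element (CRE). RefSeq's GRCm38.p6 table held a promoter for 7 of the 8 measured members. Each window runs from 250 bases before to 50 bases after the annotated start, on the + strand, and is printed 5′ to 3′ with matched motifs in capitals. The Ptgs2 window is chr1:150099781-150100080, that of Ltb4r1 chr14:55765712-55766011 and that of Hpgd chr8:56294302-56294601.
Ptgs2: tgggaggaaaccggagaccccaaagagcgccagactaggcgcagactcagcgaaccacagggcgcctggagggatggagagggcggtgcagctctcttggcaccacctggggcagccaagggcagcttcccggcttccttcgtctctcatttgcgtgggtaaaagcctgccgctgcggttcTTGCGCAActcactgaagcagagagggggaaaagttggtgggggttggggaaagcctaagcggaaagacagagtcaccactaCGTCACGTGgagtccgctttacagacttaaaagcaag
Ltb4r1: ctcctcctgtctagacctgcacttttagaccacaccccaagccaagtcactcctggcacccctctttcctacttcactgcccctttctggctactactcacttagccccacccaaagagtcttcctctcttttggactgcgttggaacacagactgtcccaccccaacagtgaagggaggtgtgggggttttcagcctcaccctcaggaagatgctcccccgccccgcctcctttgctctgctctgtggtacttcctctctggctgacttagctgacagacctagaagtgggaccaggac
Hpgd: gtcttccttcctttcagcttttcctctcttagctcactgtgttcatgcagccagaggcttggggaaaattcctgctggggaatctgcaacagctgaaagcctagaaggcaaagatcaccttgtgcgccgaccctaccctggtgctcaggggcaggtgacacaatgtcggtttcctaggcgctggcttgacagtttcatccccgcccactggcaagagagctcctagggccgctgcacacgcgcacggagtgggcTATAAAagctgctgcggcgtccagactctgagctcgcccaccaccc

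Both strands were searched for the CRE half-site TGACG, the full CRE TGACGTCA, the E-box CACGTG, the palindrome TTGCGCAA bound by C/EBP factors, the AP-1 site TGANTCA and the TATA box TATAAA. In the Ptgs2 window the capitals mark TTGCGCAA, which starts 69 bases before the annotated start. Downstream of that start they mark a CRE half-site read on the opposite strand (CGTCA) at position 14, which overlaps the E-box CACGTG at position 17. A CRE half-site was present in 20.8% of the 32851 promoter windows of this length, the E-box in 7.15% and TTGCGCAA in 0.183%. The Hpgd window holds TATAAA at position 5, downstream of the annotated start, and 13.6% of windows hold TATAAA. Among the other members it occurred in a Pla2g4a window, 200 bases before the start on the opposite strand. The Ltb4r1 window holds none of these motifs. The AP-1 site occurred in 7.81% of windows and, among the members, in that of Ptgds, and the full CRE in 1.79% and in no window of a member. These matches describe the letters of the windows and say nothing about binding.

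Pla2g4a encodes the cytosolic phospholipase that releases arachidonate, the substrate of the whole pathway. Its probe set was at 358 in control, 280 on day 1, 174 on day 3 and 222 on day 6. All 4 values were close to the floor, with the control array highest and day 3 lowest. Its log2 change against control was -0.36 at day 1, -1.04 at day 3 and -0.69 at day 6, and the day 3 difference of 2.06-fold was just past the 2.0-fold that 3 errors of dim probe sets reached. Under a 60th percentile floor Pla2g4a was at the floor on every array and no difference was left. Pla2g4a and Ptgs2 are neighbours on chromosome 1 in the RefSeq annotation, with 0 protein-coding genes between them, and their values did not follow each other: at day 1 Pla2g4a was at 280 against 358 in control, and Ptgs2 at 956 against 7.

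Ptgs2 encodes the inducible cyclooxygenase, which makes the common precursor of the prostaglandins. Its probe set gave 7 in control, 956 on day 1, 28 on day 3 and 34 on day 6. Day 1 was the single array above the floor, at least 5.51-fold higher than control, and the other 3 arrays have no order. The size of the bound depends on the floor, since a floor at the 25th percentile gave a log2 change of 4.04 and one at the 60th gave 0.83, short of 2-fold. Day 3 was at least 5.51-fold lower than day 1. Day 3, like control, was below the floor, so this bound depends on the floor in the same way. It was also short of 2-fold at the 60th percentile.

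Ptges encodes the inducible prostaglandin E synthase that acts downstream of cyclooxygenase. It was at 3041 in control, 2263 on day 1, 1085 on day 3 and 2018 on day 6. Day 3 was the lowest of the 4 arrays, at 2.8-fold below control, which is past 3 errors, while days 1 and 6 were 1.34-fold and 1.51-fold lower than control, inside them. Days 1 and 6 differed from each other by 1.12-fold. On day 1, when Ptgs2 was above the floor, Ptges was at 2263 against 3041 in control.

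Ptgis encodes the synthase of prostacyclin, a vasodilator made in vessel walls. It was at 1592 in control, 2235 on day 1, 915 on day 3 and 858 on day 6. Against control the log2 changes were 0.49 at day 1, -0.80 at day 3 and -0.89 at day 6, all under 2-fold. The day 6 change was past the general 3 errors, and the changes at days 3 and 6 were both past those of bright probe sets. Day 1 stood above both later days, and day 3 was 2.44-fold lower than day 1, while days 3 and 6 differed by 1.07-fold. Smooth muscle and endothelial genes were read on the same arrays. The 7 smooth muscle markers, each above the floor on 1 array or more, had a summed intensity of 20699 in control and 18239, 12252 and 11510 on days 1, 3 and 6, with 2, 2 and 1 of them at least 2-fold lower than control on the treated days. The 9 endothelial markers summed to 19609 in control and 21663, 14571 and 19484 on those days, with 2, 1 and 0 lower and 0 higher on any day. The median log2 change on days 1, 3 and 6 was -0.72, -0.51 and -0.18 for the endothelial markers. For the smooth muscle markers it was -0.30, -0.63 and -0.88. At day 1 the endothelial sum was thus above control while the median marker was below it. The part of either cell type in the Ptgis values was not tested.

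Ptgds encodes the lipocalin-type prostaglandin D synthase, and its 3 probe sets did not go together. The brightest, 102105_f_at, was at 1336 in control and 1531, 1489 and 1505 on days 1, 3 and 6, with no difference from control above 1.15-fold. The second, 92545_f_at, was at 567 in control, 117 on day 1, 153 on day 3 and 761 on day 6. It was at least 3.27-fold lower than control on days 1 and 3 and at least 4.38-fold higher at day 6 than at day 3. The remaining one, 92546_r_at, was at 185 in control, -196 on day 1, -24 on day 3 and 546 on day 6, 2.95-fold higher at day 6 than in control.

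The arrays on which the dimmer Ptgds probe sets were above the floor, control and day 6, were those with high Lcn5 and Adam7. Lipocalin-type prostaglandin D synthase is known as an abundant protein of the epididymis. The 9 measured genes of the epididymis and testis list summed to 14482 in control, 2340 and 2638 on days 1 and 3, and 12821 on day 6. Of the 7 above the floor, 3 were lower than control at days 1 and 3, and at day 6 Lcn5 was higher and Gpx5 lower; the sperm genes Prm2 and Akap4 were at or below the floor on every array. The part of epididymal RNA in the Ptgds values was not tested.

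**Figure D2:**
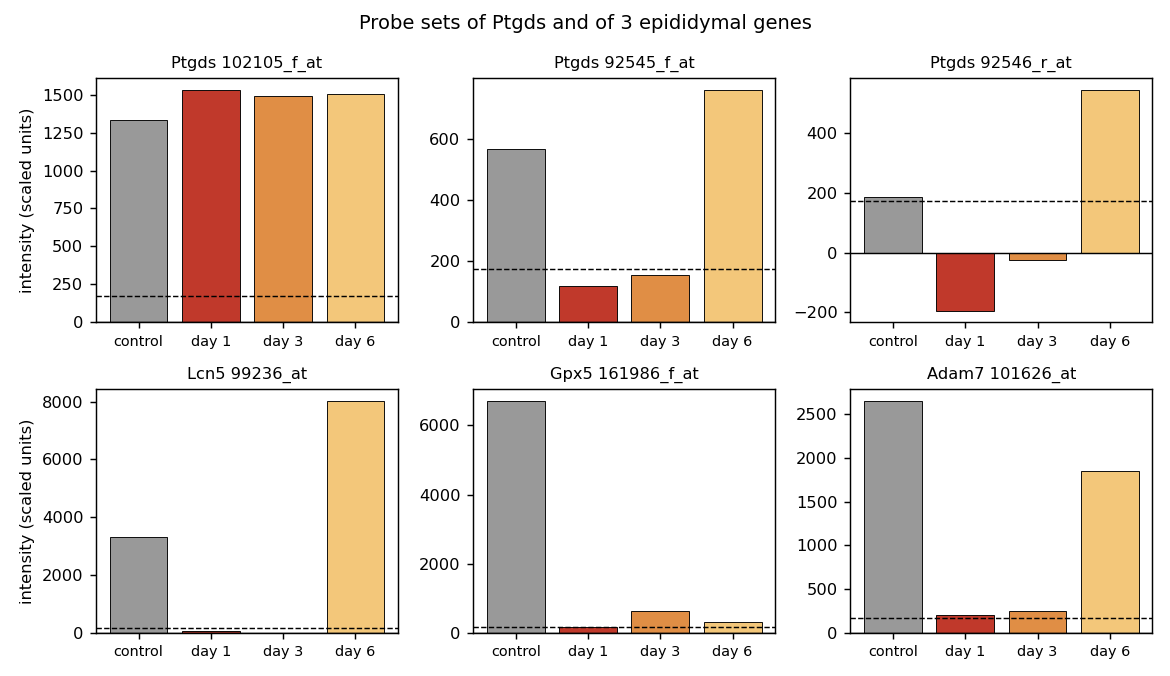
Intensity (scaled units, linear axes that differ between panels) on the 4 arrays of the 3 Ptgds probe sets (upper panels) and the brightest probe sets of the epididymal genes Lcn5, Gpx5 and Adam7 (lower panels), with a dashed line at the floor of 173.7. The brightest Ptgds probe set is level, while the other ones are above the floor in control and at day 6 alone, as Lcn5 is.

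Hpgd encodes the hydroxyprostaglandin dehydrogenase that carries out the first step of prostaglandin inactivation. Its probe set was at 2542 in control, 159 on day 1, 557 on day 3 and 754 on day 6. Every treated array lay below control, and day 1, under the floor, was the lowest. Hpgd was at least 14.6-fold lower than control at day 1, 4.56-fold lower at day 3 and 3.37-fold lower at day 6, each past 3 errors. Of the 6254 genes above the floor, 14 had a larger downward log2 change at day 3 and 16 at day 6. Day 3 was at least 3.21-fold higher than day 1, and days 3 and 6 differed by 1.35-fold, inside 3 errors. Under a 60th percentile floor the day 1 log2 change was -2.24 and the day 3 against day 1 change was 0.05.

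The fat cell and mesothelial markers moved on some of the same arrays as Hpgd. The 9 fat cell markers summed to 215363 in control and 133335, 198189 and 232180 on days 1, 3 and 6, with 4, 1 and 1 of them at least 2-fold lower than control. The marker lower on days 3 and 6 was the leptin gene Lep, with log2 changes of -2.28 and -1.93. The 6 mesothelial markers, chosen for the lining of the fat pad, summed to 8696 in control and 4282, 4004 and 4558 on those days, with 2, 3 and 3 lower. Whether epididymal RNA added to these mesothelial sums was not tested. The part of the fat cell and mesothelial markers in the Hpgd values, and that of the epididymal RNA on the control array, was not tested.

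Ltc4s encodes leukotriene C4 synthase, which joins glutathione to leukotriene A4 to give the first of the cysteinyl leukotrienes. It was at 7302 in control, 4408 on day 1, 8557 on day 3 and 7393 on day 6. Day 1 was lowest and the other 3 arrays were close together. The day 1 value was 1.66-fold below control, inside the general 3 errors and at the limit of those of bright probe sets, and day 3 was 1.94-fold above day 1, past 3 errors but under 2-fold. Its other probe set, 162391_r_at, was below 0 on all 4 arrays. Mast cells and eosinophils, which are known to make leukotriene C4, had 11 markers measured, of which 7 were at or below the floor on every array, among them the Fcer1a and Ms4a2 chains of the IgE receptor and the eosinophil peroxidase Epx. The list summed to 2525 in control and 2143, 2965 and 3374 on days 1, 3 and 6, with 0 markers 2-fold higher or lower than control on any day.

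Ltb4r1 encodes the high-affinity receptor for leukotriene B4, through which neutrophils and other leukocytes are attracted. Its probe set was at 521 in control, 1716 on day 1, 335 on day 3 and 308 on day 6. Day 1 was the highest array, and days 3 and 6 lay below control. Ltb4r1 was 3.29-fold higher than control at day 1, past 3 errors, and 183 genes had a larger upward change. It was 1.56-fold lower than control at day 3 and 1.69-fold lower at day 6. The day 6 difference was just past the general 3 errors of 1.67-fold, past the 1.58-fold of brighter probe sets and inside the 1.89-fold of dim ones. The day 3 difference was inside the general 1.76-fold and just past the 1.54-fold of brighter probe sets. The mean of Ltb4r1 over the 4 arrays lay just above 4 times the floor, the limit between these classes. Day 3 was 5.12-fold lower than day 1, with a log2 change of -1.68 under a 60th percentile floor, and days 3 and 6 differed by 1.09-fold.

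**Figure D3:**
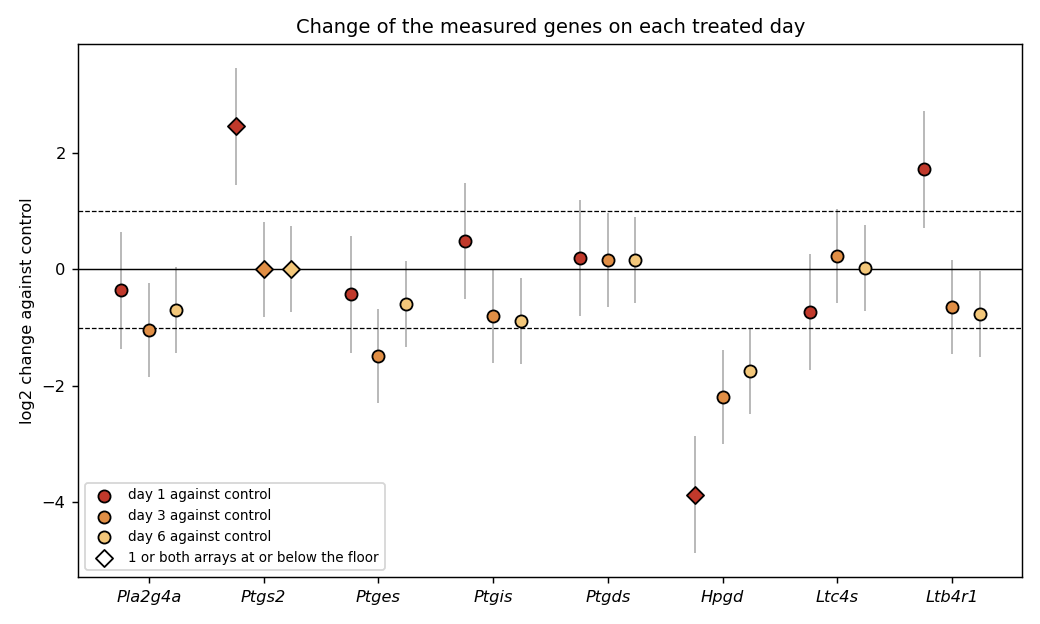
Log2 change of each measured gene (brightest probe set) on days 1, 3 and 6 against the control array, on a linear log2 axis with grey bars of 3 errors between probe sets of a gene and dashed lines at 2-fold. Diamonds mark a change with at least 1 array at or below the floor, which for Ptgs2 and Hpgd at day 1 is a lower bound. Hpgd is below the lower line on each day, and Ptgs2 and Ltb4r1 are above the upper line at day 1 alone.

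Neutrophil and macrophage markers had their highest sums on day 1, the array where Ptgs2 and Ltb4r1 were highest, and B cell markers had their lowest. The 13 neutrophil markers summed to 8325 in control and 87642, 9530 and 4815 on days 1, 3 and 6; of the 11 above the floor, 6 were at least 2-fold higher than control at day 1, 2 at day 3 and 0 at day 6, and 2, 2 and 3 were at least 2-fold lower. The granule genes Ngp and Mpo were at or below the floor on every array. The 13 macrophage markers summed to 31556 in control and 81547, 77222 and 41665 on days 1, 3 and 6, with 7, 6 and 2 higher and 0 lower on any day. The 6 B cell markers summed to 20230 in control and 7449, 10454 and 15709 on those days, with 1, 0 and 0 higher and 1, 1 and 0 lower. The median log2 change of the B cell markers was -0.43, -0.17 and 0.08, so the day 1 sum fell further than the median marker. The 8 T and NK cell markers, of which 7 were at or below the floor on every array, summed to 741 in control and 770, 445 and 753. The part of these cells in the day 1 values of either gene was not tested.

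From day 1 to day 3 the members separated again. Of the 8, 1 was at least 2-fold higher at day 3 than at day 1 (Hpgd) and 4 were lower (Ptgs2, Ptges, Ptgis and Ltb4r1), beside 5.84% of all genes higher and 6.28% lower. Between day 6 and day 3, 0 of 8 were higher and 0 lower, beside 1.5% and 2.65% of all genes. Read by the brightest probe sets, Ptges at 1.86-fold higher was the one member past 3 errors in that comparison. The dimmer Ptgds probe sets 92545_f_at and 92546_r_at were at least 4.38-fold and 3.14-fold higher at day 6 than at day 3, also past 3 errors.

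The rest of the pathway was read from 7 lists of 89 genes, of which 59 were measured and 46 passed the floor on 1 array or more. At day 1, 4 of the 46 were at least 2-fold higher and 7 lower than control, with a median log2 change of -0.17. At day 3, 3 were higher and 2 lower, with a median of 0.00, and at day 6, 2 were higher and 1 lower, with a median of 0.03. The medians over all genes above the floor were -0.02, 0.00 and 0.00.

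Of arachidonate release and related phospholipases, 11 genes were above the floor. Read by their brightest probe sets, 1 was higher at days 1 and 3 and 0 at day 6, and 0 were lower on any day. Pla2g7, the phospholipase that inactivates platelet-activating factor, was that gene, at 429 in control, 2120 on day 1, 1313 on day 3 and 826 on day 6. Control was lowest and day 1 highest, and Pla2g7 was 4.94-fold higher at day 1 and 3.06-fold higher at day 3. The probe sets of Pla2g12a, a secreted phospholipase gene, did not go together. Its brightest was level at day 1, at 9721 against 9684 in control. Its dimmer one was at 1639 in control, 697 on day 1, 1171 on day 3 and 1752 on day 6. That was 2.35-fold lower than control at day 1, past 3 errors. Of 6 further prostanoid synthase and reductase genes, 1 was higher at day 1, the aldo-keto reductase Akr1b8, at 3588 on day 1 against 1471 in control.

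Of 3 genes of prostaglandin breakdown and transport, Ptgr1, a reductase that acts after Hpgd in prostaglandin inactivation, was at 623 in control, 428 on day 1, 1552 on day 3 and 401 on day 6. Day 3 alone stood above the rest, 2.49-fold over control. Hsd17b10, a mitochondrial hydroxysteroid dehydrogenase, was at 4794 in control, 1471 on day 1, 4266 on day 3 and 6562 on day 6, and was 3.26-fold lower than control at day 1.

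Of the 7 prostanoid receptor genes above the floor, 3 were lower at day 1 and 0 were higher, and at days 3 and 6 none of the 7 passed 2-fold in either direction. Ptger3, the receptor through which prostaglandin E2 lowers cAMP in fat cells, was at 831 in control, 195 on day 1, 966 on day 3 and 777 on day 6. It was 4.27-fold lower than control at day 1 and level with it afterwards, and its second probe set did not reach the floor on any array. The nuclear receptor Pparg, which binds prostaglandin J2 derivatives, was at 1302 on day 1 against 4876 in control, 3.75-fold lower. The thromboxane receptor Tbxa2r was at 152 on day 1 against 362 in control, at least 2.09-fold lower. Under a 60th percentile floor the calls of Ptger3 and Tbxa2r ended, with log2 changes of -0.63 and 0.00, and with the mean over probe sets Ptger3 was at -1.05. The receptor genes Ptger1, Ptgdr, Ptgfr and Ptgfrn were at or below the floor on all 4 arrays.

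The list of lipoxygenases and leukotriene enzymes held 18 genes, of which 15 were measured. Alox5, the lipoxygenase that makes the leukotrienes, was not among the measured genes. Of 13 lipoxygenase and leukotriene enzyme genes above the floor, 1 was higher and 3 lower at day 1, 0 higher and 2 lower at day 3, and 1 higher and 1 lower at day 6. Dpep1, the dipeptidase that converts leukotriene D4 into E4, was at 1989 in control, 349 on day 1, 991 on day 3 and 1556 on day 6, 5.69-fold lower than control at day 1. Mgst2 and Mgst3, microsomal glutathione S-transferases of the same protein family as Ltc4s, were also lower at day 1. Mgst2 was at 1130 in control, 378 on day 1, 1743 on day 3 and 2344 on day 6, so that it was 2.99-fold lower at day 1 and 2.07-fold higher at day 6. Mgst3 was at 9360 on day 1 against 21834 in control, 2.33-fold lower. The second probe set of each of these genes was below the floor on every array, so its log2 change was fixed at 0.00. The mean over probe sets therefore lay nearer to no change, and none of these calls passed 2-fold with it. The log2 change of Mgst2 was then -0.79 at day 1 and 0.53 at day 6, and that of Mgst3 was -0.61 at day 1. Cotl1, a coactosin-like protein that binds lipoxygenase, was at least 2.63-fold higher at day 1, at 456 on day 1 against 143 in control. Alox15, a lipoxygenase of macrophages and eosinophils, was at 378 in control, 401 on day 1, 101 on day 3 and 116 on day 6, at least 2.18-fold lower than control on days 3 and 6. Under a 60th percentile floor the calls of Cotl1 and Alox15 ended, each with a log2 change of 0.00, and that of Dpep1 at day 1 was -1.89. Lta4h, the hydrolase that makes leukotriene B4, was within 1.24-fold of control on every day. These last genes, Alox15 and Lta4h, were named after their values were seen.

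The single measured gene of the leukotriene and lipoxin receptor list beside Ltb4r1 was Fpr2, a receptor for lipoxin and formyl peptides on neutrophils. It was at 28 in control, 1130 on day 1, 52 on day 3 and 71 on day 6, at least 6.51-fold higher than control at day 1 and below the floor on the other arrays. Its log2 change was 4.28 with a floor at the 25th percentile and 1.07 with one at the 60th. In the epoxide pathway 5 of 10 measured genes were above the floor, with 0, 1 and 1 higher on days 1, 3 and 6 and 0 lower. The one was Ephx2, the soluble epoxide hydrolase, at 3533 in control, 5289 on day 1, 10095 on day 3 and 12074 on day 6. Its order was control, day 1, day 3, day 6, and it was 2.86-fold and 3.42-fold higher than control on days 3 and 6.

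**Figure D4:**
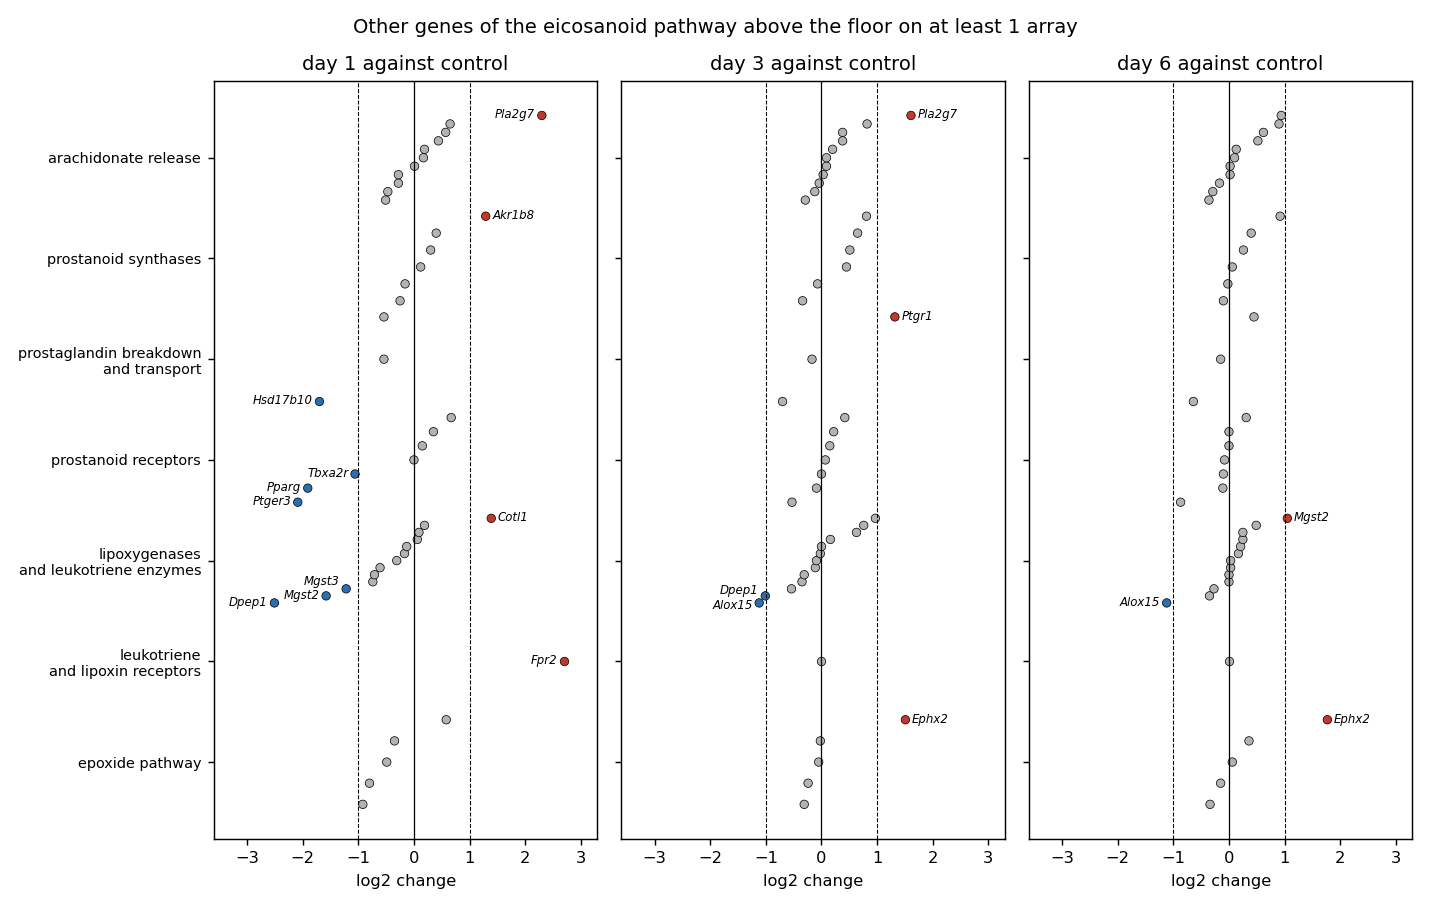
Log2 change against control on days 1, 3 and 6 of the other pathway genes above the floor on at least 1 array, by list, with 1 point per gene and dashed lines at 2-fold. Red points are at least 2-fold higher, blue points at least 2-fold lower, and genes past 2-fold are labelled. The blue points of the receptor list are at day 1 alone.

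For each member that passed 2-fold against control, the genes with the nearest course were found among 5297 genes whose brightest array was at least 2 times the floor, by the largest difference in log2 change over the 3 treated days. All 3 changes share the control array. Where a member or a neighbour was at or below the floor, its change is a bound and the difference depends on the floor, which holds for the day 1 change of Hpgd, for Ptgs2 and its neighbours, for Gmppb on days 3 and 6, and for Utf1 and Klf2 on day 3. Nearest to Hpgd were the leptin gene Lep, with a largest difference of 0.35, the thyrotropin receptor gene Tshr with 0.58 and the natriuretic peptide clearance receptor gene Npr3 with 0.67. Lep was at 18452 in control and 1605, 3807 and 4841 on days 1, 3 and 6. Nearest to Ptgs2 were Serpinb2, an inhibitor of plasminogen activators, Chil1, a chitinase-like protein, and the chemokine gene Ccl12, with 0.01, 0.02 and 0.11. These genes, like Ptgs2, were above the floor at day 1 alone. Nearest to Ltb4r1 were Gmppb, Tubb3 and Hsph1, with 0.09, 0.19 and 0.21. Nearest to Ptges were Utf1, the endothelial transcription factor gene Klf2 and Mycbp2, with 0.14, 0.16 and 0.21, and nearest to Pla2g4a were Nr2f2, Gga2 and Errfi1, with 0.12, 0.16 and 0.17.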

How the data were processed

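The authors deposited 1 linear intensity per probe set and array, in whole numbers. From 12.2% to 12.4% of the values of an array were 0 or negative, and the 4 columns had medians of 314 to 314.5. The sources used here do not state the software, background step or normalization. Of 12488 probe sets, 66 controls were left out. Scaling set the mean of each array, taken from its 2nd to its 98th percentile, to one value (factors 0.998 to 1.001). Scaled values under the 40th percentile of all arrays were set to that percentile, the floor, before log2 was taken. The array's annotation table gave 1 symbol for 10833 probe sets, several for 396 and none for 1193, and only the first kind was named. The probe set with the highest mean stands for its gene. Entrez identifiers of all 8 measured members matched their RefSeq symbols.

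The error of a log2 change is the scaled median absolute deviation of the difference between 2 probe sets of a gene, divided by the square root of 2, over 782 to 819 genes. Named genes were the members, in each pathway list the 4 or fewer largest changes past 2-fold, and the 3 nearest genes to each member past 2-fold. Members and lists were chosen with earlier results of these data known. Alternatives were floors at the 25th and 60th percentiles, quantile normalization, unscaled values and the mean over probe sets. Calls and error estimate were tested on simulated data with large changes in bright probe sets and the same noise at every brightness. Changes near 2-fold or near the floor were not simulated. Python 3.11.15, numpy 2.4.6 and pandas 2.3.3 were used.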

Additional observations from a re-analysis of the deposited data

Results flagged for a closer look

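The leukotriene B4 receptor gene Ltb4r1 lay on opposite sides of control on different treated days, each time by more than 3 errors between probe sets of a gene when all brightness levels are pooled. Its log2 change against control was 1.72 at day 1 and -0.76 at day 6. The day 6 change was inside the 3 errors of 0.91 found for dim probe sets and past the 0.66 of brighter ones. By its mean over the 4 arrays Ltb4r1 falls just within the brighter class, while its control and day 6 values lie under 4 times the floor. With 1 array per group the difference between the days was not tested, and under a 60th percentile floor the day 6 change was 0.00, because both arrays were then at the floor.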

How the results depend on the processing

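No paired analysis was possible because each group has 1 array. Quantile normalization and unscaled values moved 0 of the 40 member changes by more than 1 error, and a floor at the 25th percentile, a floor at the 60th percentile and the mean over probe sets moved 2, 12 and 6. With the 60th percentile floor, 1 member in place of 2 was higher at day 1 and 0 in place of 1 at day 3 against day 1. Under that floor Pla2g4a at day 3 and Ptgs2 at day 3 against day 1 were no longer called lower. With the mean over probe sets 1, Ptgds, was higher at day 6 against day 3, at 1.27. Counts over all genes moved with the floor. At the 60th percentile they were 299 higher and 319 lower at day 1 (469 and 523 in the report's setting), 135 and 108 at day 3 (238 and 204), 60 and 53 at day 6 (108 and 102), 215 and 218 at day 3 against day 1 (365 and 393), and 30 and 81 at day 6 against day 3 (94 and 166). At the 25th percentile they were 394 and 386 at day 3, 266 and 280 at day 6, 596 and 603 at day 3 against day 1, and 287 and 357 at day 6 against day 3. Of the list medians against control, 9 of 105 moved. At the 60th percentile floor they were -0.71 for lipoxygenases and leukotriene enzymes and -0.63 for prostanoid receptors at day 1, -0.96, 0.57 and 0.12 for prostaglandin breakdown and transport on days 1, 3 and 6, and 1.07 for Fpr2 at day 1. At the 25th percentile floor Fpr2 was at 4.28 at day 1 and 0.29 at day 6, and the epoxide pathway median was 0.37 at day 6. The day 1 changes of Ptgs2 and Hpgd are bounds set by the floor. Read by the brightest probe set or the mean over probe sets, Ptgis, Ltc4s and Ptgds stayed within 2-fold of control in every setting. Of 225 changes of named pathway genes, 23 moved, and the calls that ended are given in the report. The arrays give no estimate of the variation between mice.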
